A study of Mus musculus with 12 samples.

Results

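Messenger RNA levels of 10 genes linked to neural crest specification were examined in 12 rhabdoid tumors that arose in mice of the genotype P0-CreC;Smarcb1 flox/flox: the AP-2 genes Tfap2a, Tfap2b, Tfap2c, Tfap2d and Tfap2e, the forkhead gene Foxd3, and Ets1, Ebf1, Rxrg and Lmo4. They were taken by name from the 24060 genes listed, and all 10 were found. The tumors came from retro-orbital (4 tumors), cheek (3 tumors) and meninges (3 tumors) sites, and 1 each from the vestibular and trigeminal nerves. Every tumor carried the same genotype, in which a Cre transgene under the promoter of the myelin protein zero gene (P0) removes both copies of Smarcb1 from neural crest cells and the Schwann cell lineage. No untreated or wild-type tissue was measured, so all comparisons below are between tumors. The mice were of the FVB/N strain, and the age of each tumor-bearing mouse was not given in the sources used here. Whole tumors were frozen and their RNA sequenced after removal of ribosomal RNA. In such bulk samples fewer cells of a type cannot be told apart from less RNA per cell.

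The neural crest is a population of embryonic cells that leaves the border of the neural plate and gives rise to facial bone, the glia and neurons of the peripheral nerves, and pigment cells. Its identity is set by a network of transcription factors. AP-2 proteins, first of all Tfap2a, act at the border and again in the migrating cells, Foxd3 keeps the cells multipotent and holds back the pigment fate, and Ets1 marks the cranial crest. Ebf1 is a helix-loop-helix factor of B lymphocytes, fat and early neurons, Rxrg is a retinoid X receptor, and Lmo4 is a LIM-only adaptor that joins transcription factors without binding DNA itself.

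All 10 genes are protein-coding. In GENCODE M21 on GRCm38, the same assembly as the mm10 genome that the authors used, Tfap2a spans bases 40715302 to 40738376 of chromosome 13 on the minus strand and Tfap2c bases 172549593 to 172558622 of chromosome 2 on the plus strand. Tfap2b (bases 19208914 to 19238576) and Tfap2d (bases 19103022 to 19166346) are neighbours on the plus strand of chromosome 1, which also holds Rxrg (bases 167598384 to 167639623, plus strand). Tfap2e (bases 126716006 to 126736240, minus strand) and the single-exon gene Foxd3 (bases 99656299 to 99658622, plus strand) lie on chromosome 4. Ets1 covers bases 32636221 to 32757820 of chromosome 9, and Ebf1 bases 44617317 to 45008091 of chromosome 11, both on the plus strand, and Lmo4 covers bases 144188530 to 144205220 of chromosome 3 on the minus strand.

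Since the 5 AP-2 genes are paralogs, their transcripts were compared to see how far a sequenced fragment could be shared between them. Coding stretches of 60 bases within a single exon were compared without gaps. The Tfap2c stretch with the most identical bases summed over the other AP-2 genes is shown, 5′ to 3′ on the coding strand. Capitals mark each base that differs from Tfap2c at the same place. The letters are those of the GENCODE M21 transcripts, and each stretch lies in exon 4 of its transcript.
Tfap2c: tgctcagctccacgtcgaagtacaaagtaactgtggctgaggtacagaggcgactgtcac
Tfap2a: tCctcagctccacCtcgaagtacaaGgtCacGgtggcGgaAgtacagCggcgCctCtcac
Tfap2b: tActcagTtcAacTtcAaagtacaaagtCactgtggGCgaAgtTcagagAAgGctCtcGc
Tfap2d: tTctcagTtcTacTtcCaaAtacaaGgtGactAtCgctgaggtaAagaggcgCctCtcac
Tfap2e: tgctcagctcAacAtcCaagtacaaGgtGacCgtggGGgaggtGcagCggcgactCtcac
The Tfap2c stretch is chr2:172553527-172553586 (plus strand), and the others are chr13:40723137-40723196 (Tfap2a, minus strand), chr1:19226550-19226609 (Tfap2b, plus strand), chr1:19118890-19118949 (Tfap2d, plus strand) and chr4:126721901-126721960 (Tfap2e, minus strand). In this stretch Tfap2a differed from Tfap2c at 10 bases, Tfap2e at 11, Tfap2d at 13 and Tfap2b at 15. Over the whole transcripts, the longest run of identical bases shared by a pair of AP-2 genes was between 11 bases (Tfap2c and Tfap2d) and 29 bases (Tfap2a and Tfap2b). A read longer than 29 bases thus carried at least 1 base that told any pair of these transcripts apart.

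The values are RPKM as deposited, that is, reads scaled to the length of the transcript and to the depth of the tumor's library. The fragment total behind each tumor, recovered from the steps between low values, lay between 13206162 (cheek 3) and 57128563 (retro-orbital 3), with a median of 27929644. These are the totals that the values were scaled to, and not the numbers of reads sequenced, which the study gives over a narrower range. Smarcb1, the targeted gene, was between 1.70 RPKM (vestibular nerve) and 6.31 RPKM (meninges 3). The counts cover the whole gene, including exons outside the deleted part, and other cells of the tumor also express Smarcb1, so these values do not check the deletion. In 3 cases, tumors share the first part of their identifier (cheek 1 with meninges 1, cheek 2 with cheek 3, retro-orbital 3 with trigeminal nerve). Whether they came from the same mouse is not stated, so p-values measure the spread between these tumors.

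**Figure D1:**
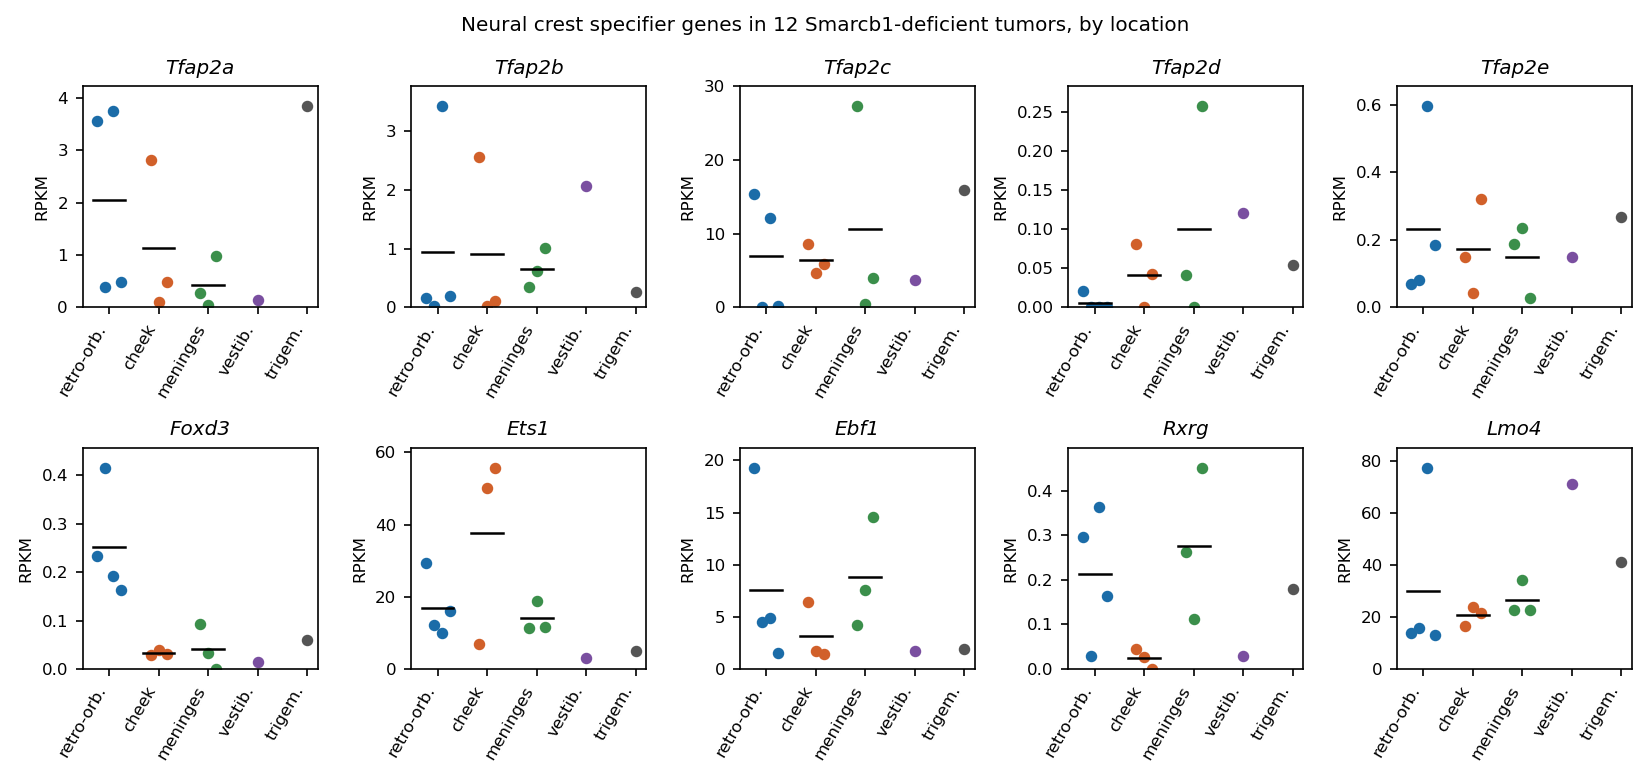
RPKM (linear axis from 0, one scale per panel) of each of the 10 genes in the 12 tumors, by location. Points are single tumors and black lines the means of the 3 locations with 3 or 4 tumors. Lmo4, Ets1 and Ebf1 were at 1 RPKM or more in every tumor, and the Tfap2d, Tfap2e, Foxd3 and Rxrg panels stay below 1 RPKM.

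The genes fell into 3 tiers of level. Lmo4, Ets1 and Ebf1 reached 1 RPKM in all 12 tumors, as did 44.2% of all genes listed. Tfap2c, Tfap2a and Tfap2b reached it in some tumors only. Tfap2d, Tfap2e, Foxd3 and Rxrg stayed under 1 RPKM in all 12, as did 29.5% of all genes listed. Ordered by their mean log2(RPKM + 1) over the 12 tumors, the genes ran Lmo4 (4.76), Ets1 (3.91), Tfap2c (2.57), Ebf1 (2.40), Tfap2a (1.001), Tfap2b (0.73), Tfap2e (0.24), Rxrg (0.21), Foxd3 (0.14) and Tfap2d (0.07). Of the 9 pairs of neighbours in this order, compared within tumors by an exact two-sided sign-flip permutation test, Ebf1 and Tfap2a were the pair that differed beyond the spread: Ebf1 was higher in 11 of 12 tumors, by 1.40 ± 1.10 (SD, n = 12) on the log2(RPKM + 1) scale (p = 0.00195, adjusted over the 9 pairs 0.0176). The other 8 pairs had adjusted p-values from 0.136 to 0.734, so that, for example, Lmo4 and Ets1 (Lmo4 higher in 8 of 12 tumors, adjusted p = 0.265, exact permutation test) could not be ranked. The order was set by these same values, and the test took the 12 tumors as independent, also those that share an identifier. Levels of different genes also rest on the transcript lengths that the values were divided by, which the sources do not give.

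Tfap2c led the AP-2 family. It was the highest of the 5 AP-2 genes in 9 of 12 tumors, and in those 9 it made up between 60.03% and 97.0% of the summed AP-2 RPKM. In the retro-orbital tumors Tfap2c was at 15.4, 0.122, 12.1 and 0.253 RPKM, in the cheek tumors at 8.53, 4.69 and 5.90 RPKM, in the meninges tumors at 27.3, 0.496 and 4.01 RPKM, and in the vestibular and trigeminal nerve tumors at 3.71 and 15.9 RPKM. Retro-orbital 2, retro-orbital 4 and meninges 2 were low, each at 0.496 RPKM or less, and every other tumor was at 3.71 RPKM or more. The highest value, in meninges 1, was 224-fold above the lowest, in retro-orbital 2. Both the highest and a low tumor thus lay in the meninges, and the values of the 3 locations overlapped. The spread of Tfap2c, an SD of 1.55 on the log2(RPKM + 1) scale, was larger than that of 96.3% of the 15043 genes that reached 1 RPKM in at least 3 tumors.

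Tfap2a, the AP-2 gene best known from the neural crest and the surface ectoderm, reached 1 RPKM in 4 of 12 tumors. Its values were 3.56, 0.385, 3.76 and 0.490 RPKM in the retro-orbital tumors, 2.82, 0.113 and 0.487 RPKM in the cheek tumors, 0.278, 0.0465 and 0.980 RPKM in the meninges tumors, 0.140 RPKM in the vestibular and 3.84 RPKM in the trigeminal nerve tumor. The 4 tumors with Tfap2a at 1 RPKM were retro-orbital 1 and 3, cheek 1 and the trigeminal nerve tumor, and no meninges tumor was among them. All 4 also had Tfap2c at 8.53 RPKM or more, whereas meninges 1, with the most Tfap2c, had Tfap2a at 0.278 RPKM.

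Tfap2b, which takes part with Tfap2a in facial and sympathetic development, also reached 1 RPKM in 4 of 12 tumors, of which it shared retro-orbital 3 and cheek 1 with Tfap2a. It was at 0.159, 0.0314, 3.42 and 0.190 RPKM in the retro-orbital tumors, at 2.56, 0.0283 and 0.116 RPKM in the cheek tumors, at 0.347, 0.626 and 1.01 RPKM in the meninges tumors, and at 2.06 and 0.262 RPKM in the vestibular and trigeminal nerve tumors. Retro-orbital 3 and cheek 1 therefore had 3 AP-2 genes at 1 RPKM, and they were the 2 tumors of 12 with that many. Another 4 tumors had 2, 3 tumors had only Tfap2c, and 3 tumors (retro-orbital 2, retro-orbital 4 and meninges 2) had none. In those 3 the whole family summed to 0.619, 1.12 and 1.40 RPKM, against 4.87 to 28.1 RPKM in the other 9. Nothing in the labels sets these 3 tumors apart, and no test was made of groups drawn from these values. The paper sorted its 12 tumors into 3 molecular subgroups by expression, but the labels do not give the subgroup of each tumor.

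**Figure D2:**
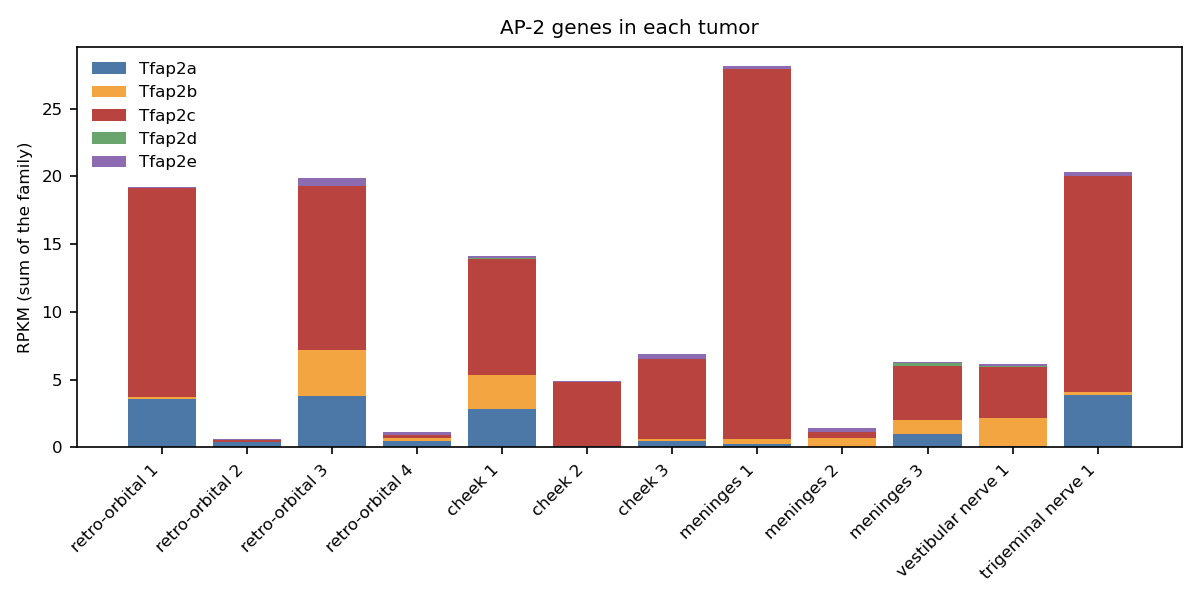
Summed RPKM of the 5 AP-2 genes (stacked bars, linear axis from 0) in each of the 12 tumors. Tfap2c makes up most of the bar in 9 tumors, and retro-orbital 2, retro-orbital 4 and meninges 2 have family sums of 0.619, 1.12 and 1.40 RPKM.

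Tfap2d and Tfap2e, AP-2 genes of the developing midbrain and retina and of the olfactory system, were near or at the limit of what this depth can show. Tfap2d was at 0 in 5 tumors, and its highest value was 0.257 RPKM in meninges 3, which corresponds to 8 fragments. In the 5 tumors at 0, the upper end of the exact Poisson 95% interval lay between 0.0370 RPKM (retro-orbital 3) and 0.0803 RPKM (meninges 2). Tfap2e was above 0 in all 12 tumors, from 1 fragment (0.0265 RPKM, meninges 3) to 72 fragments (0.595 RPKM, retro-orbital 3). The exact Poisson 95% interval of that highest value was 0.466 to 0.750 RPKM. These intervals cover counting error only, since amplified fragments are not independent molecules.

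Foxd3 was low in every tumor, with its 4 highest values in the 4 retro-orbital tumors. It was at 0.233, 0.416, 0.192 and 0.164 RPKM in the retro-orbital tumors, at 0.0297, 0.0388 and 0.0319 RPKM in the cheek tumors, at 0.0919, 0.0320 and 0 RPKM in the meninges tumors, and at 0.0148 and 0.0597 RPKM in the vestibular and trigeminal nerve tumors. All 4 retro-orbital tumors lay above all 8 others, a separation that was looked for after the values were seen and that 0.265% of the genes above 0 in at least 1 tumor also showed (60 of 22613). The values rest on 15, 29, 26 and 16 fragments in the retro-orbital tumors and on 0 to 6 fragments in the others. The Poisson 95% interval of the lowest retro-orbital value (0.0935 to 0.266 RPKM) overlapped that of the highest other value, in meninges 1 (0.0337 to 0.200 RPKM). Foxd3 did not pass the filter of 1 RPKM in at least 3 tumors and was not part of the test by location. When the filter was dropped, limma gave Foxd3 an unadjusted p of 0.00505 and an adjusted p of 0.228 over 22520 genes.

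Rxrg was also low, at 0.297, 0.0288, 0.363 and 0.164 RPKM in the retro-orbital tumors, at 0.0448, 0.0259 and 0 RPKM in the cheek tumors and at 0.261, 0.113 and 0.452 RPKM in the meninges tumors. The vestibular and trigeminal nerve tumors were at 0.0298 and 0.180 RPKM. The 3 cheek tumors held 0 to 3 fragments and the 3 meninges tumors 7 to 19, and retro-orbital 2 and the vestibular nerve tumor were within the cheek range. How many of all genes separate the cheek from the meninges tumors was not counted. Without the filter, the limma contrast of meninges minus cheek had an unadjusted p of 0.0331 and an adjusted p of 0.304 for Rxrg. The 5 related receptors listed were more abundant, and 4 of them reached 1 RPKM in all 12 tumors, against 44.2% of all genes listed. Rxra was between 7.17 and 23.9 RPKM and Rxrb between 12.2 and 20.5 RPKM, and Rarg reached between 19.4 and 53.6 RPKM. Rara was between 3.74 and 16.7 RPKM and Rarb between 0.860 and 16.7 RPKM.

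Ets1, an Ets-domain factor of cranial crest, endothelium and lymphocytes, was above 1 RPKM in all tumors and highest in a pair of cheek tumors. It was at 29.2, 12.2, 10.1 and 15.9 RPKM in the retro-orbital tumors, at 6.90, 50.2 and 55.8 RPKM in the cheek tumors, at 11.5, 18.9 and 11.6 RPKM in the meninges tumors, and at 3.14 and 4.98 RPKM in the vestibular and trigeminal nerve tumors. Cheek 2 and 3, which share the first part of their identifier, stood above all other tumors, while cheek 1 was lower than every retro-orbital and meninges tumor. Ets1 ranked between the 54.9 and the 95.1 percentile of the genes within a tumor.

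Ebf1 was between 1.48 RPKM (cheek 3) and 19.3 RPKM (retro-orbital 1). Its values were 19.3, 4.48, 4.93 and 1.56 RPKM in the retro-orbital tumors, 6.45, 1.68 and 1.48 RPKM in the cheek tumors, 4.26, 7.55 and 14.6 RPKM in the meninges tumors, and 1.73 and 1.88 RPKM in the vestibular and trigeminal nerve tumors. Retro-orbital 1 and meninges 3 were the highest, and the locations overlapped.

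Lmo4 had the highest mean level of the 10 genes, though it was above Ets1 in 8 of 12 tumors only. It was at 13.7, 15.6, 77.6 and 12.99 RPKM in the retro-orbital tumors, at 16.5, 23.8 and 21.5 RPKM in the cheek tumors, at 22.6, 34.4 and 22.9 RPKM in the meninges tumors, and at 71.3 and 41.2 RPKM in the vestibular and trigeminal nerve tumors. Retro-orbital 3 and the vestibular nerve tumor stood above the rest, and the other 3 retro-orbital tumors were the lowest of all 12. The level of Lmo4 was between the 75.2 and the 97.1 percentile of the genes within a tumor.

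Whether these levels depend on where the tumor grew was tested with limma on log2(RPKM + 1) over the 10 retro-orbital, cheek and meninges tumors. Of the 10 members, 6 passed the filter of 1 RPKM in at least 3 of those tumors (Tfap2a, Tfap2b, Tfap2c, Ets1, Ebf1 and Lmo4), and none of the 6 passed the test of a difference by location when the tumors were taken as independent. Their adjusted limma p-values were 0.613 for Tfap2a, 0.997 for Tfap2b, 0.883 for Tfap2c, 0.628 for Ets1, 0.552 for Ebf1 and 0.903 for Lmo4, and none had an unadjusted p under 0.05. Among all 14745 genes tested, 6 passed (0.0407%), and 2110 had an unadjusted p under 0.05. The count over all genes depended on single tumors (198 without cheek 1, 56 without retro-orbital 3, and 0 without cheek 2, cheek 3 or meninges 1). A fit that lets tumors with a shared identifier be correlated, added after the data were seen, gave a very different count. It estimated a correlation of 0.93 from the 2 such pairs among the 10 tumors and called 2802 genes, among them Tfap2a (adjusted p = 0.0245, limma) and Tfap2b (adjusted p = 0.0474, limma), but not the other 4 members (adjusted p from 0.276 to 0.854). The labels do not say what a shared identifier means.

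With independent tumors, the pairwise contrasts gave no call for a member either, and none of the 18 had an unadjusted limma p under 0.05. Between cheek and retro-orbital tumors 0.0271% of all genes passed, between meninges and retro-orbital tumors 0.0203%, and between meninges and cheek tumors 0.0475%. The widest intervals were those of Tfap2c, whose cheek minus retro-orbital difference was 0.79 ± 1.19 (SE) on the log2(RPKM + 1) scale, with a 95% interval from -1.89 to 3.46. The largest difference among the members was that of Ebf1, 1.27 ± 0.74 (SE) higher in the meninges than in the cheek tumors, with an interval from -0.39 to 2.94 (adjusted p = 0.400, limma). For Tfap2a the difference of meninges minus retro-orbital was -0.90 ± 0.59 (SE), with an interval from -2.23 to 0.43 (adjusted p = 0.634, limma). For Ets1 the difference of meninges minus cheek was -0.96 ± 0.69 (SE), with an interval from -2.51 to 0.60 (adjusted p = 0.494, limma). This value rested on cheek 1: without that tumor it was -1.88, with an adjusted p of 0.0457, while 527 genes passed in that contrast. With correlated tumors the Ets1 value turned to 0.47 (adjusted p = 0.269, limma) and that of Ebf1 in the same contrast to -0.27 (adjusted p = 0.621, limma). In that fit meninges minus cheek passed for Tfap2a (-1.43, adjusted p = 0.00883, limma) and Tfap2b (-1.22, adjusted p = 0.0156, limma), with 4243 genes called, and by its construction it weights the difference between cheek 1 and meninges 1, a single pair of tumors, above the others. The differences of Lmo4 rested on retro-orbital 3: without it, meninges minus retro-orbital went from 0.25 to 0.85 (unadjusted p = 0.00375, adjusted 0.229, limma) and cheek minus retro-orbital from -0.09 to 0.51 (unadjusted p = 0.0437, adjusted 0.423, limma). Over all genes tested, the median difference was 0.13 for meninges minus retro-orbital and 0.16 for meninges minus cheek, which quantile normalization moved to 0.02 and -0.01, so member differences involving the meninges are best read against these medians.

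**Figure D3:**
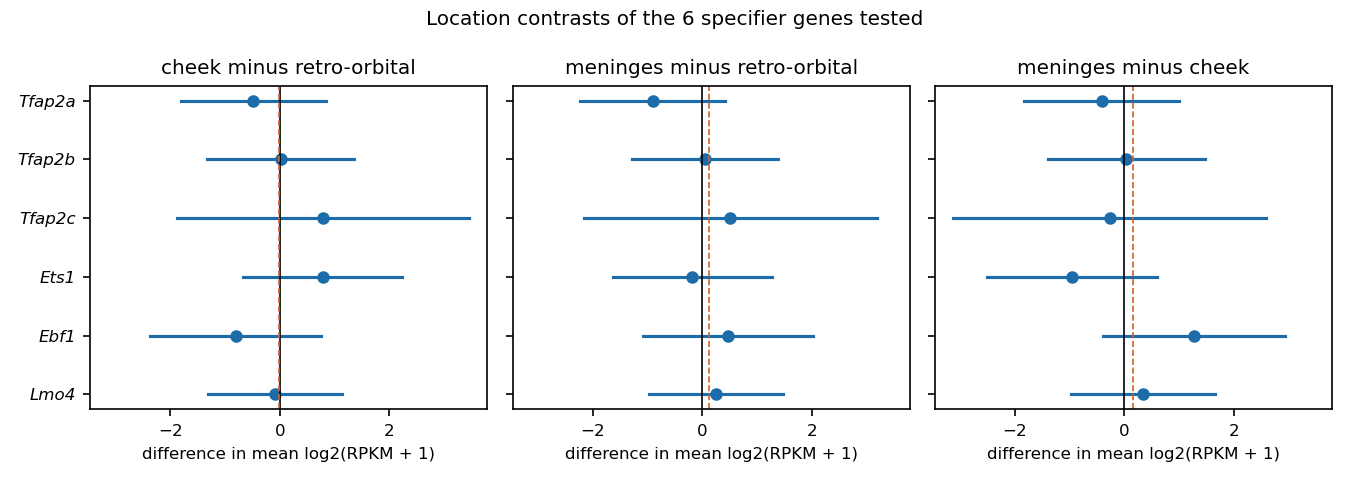
Difference in mean log2(RPKM + 1) between locations for the 6 genes tested, from limma over 10 tumors taken as independent. Points are differences, blue lines their 95% confidence intervals, the black line marks 0 and the dashed line the median of all 14745 genes tested. Every interval includes 0.

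Without regard to shared identifiers, location accounted for less of the members' variance than of the median gene's. With so few tumors, some share arises by chance alone. The share of the variance in log2(RPKM + 1) that lay between the 3 locations was 0.084% for Tfap2b, 3.94% for Lmo4, 4.76% for Tfap2c, 19.4% for Ets1, 21.9% for Tfap2a and 25.3% for Ebf1, against a median of 30.1% over the 14745 genes tested. In contrast, each of the 6 varied more from tumor to tumor than the median gene, whose SD over the 12 tumors was 0.48. The SDs on the log2(RPKM + 1) scale were 0.74 for Tfap2b, 0.83 for Lmo4, 0.89 for Tfap2a, 1.04 for Ebf1, 1.15 for Ets1 and 1.55 for Tfap2c.

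The tumors that share an identifier were set side by side. Cheek 2 and cheek 3 differed by at most 0.42 on the log2(RPKM + 1) scale for any of the 10 genes (Tfap2a). Cheek 1 and meninges 1 differed by 1.58 for Tfap2a and by 1.40 for Tfap2b, both higher in cheek 1, and by -1.57 for Tfap2c, higher in meninges 1. Retro-orbital 3 and the trigeminal nerve tumor differed by -0.03 for Tfap2a and -0.36 for Tfap2c, but retro-orbital 3 was higher by 1.81 for Tfap2b and by 1.04 for Ebf1. Location and identifier cannot be told apart for the cheek pair.

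Across the 12 tumors, the 15 pairs that the 6 genes form were correlated on the log2(RPKM + 1) scale, and none passed adjustment over the 15 pairs (2 had an unadjusted permutation p under 0.05 for Pearson's r). The strongest were Tfap2b with Lmo4 (Pearson's r = 0.60, permutation p = 0.0354, adjusted 0.282, and Spearman's rho = 0.49, p = 0.111, adjusted 0.503) and Tfap2b with Ets1 (r = -0.59, permutation p = 0.0438, adjusted 0.282, and rho = -0.71, p = 0.0122, adjusted 0.183). Without the 2 tumors farthest from the median of Tfap2b, cheek 1 and retro-orbital 3, r was 0.73 for Lmo4 and -0.65 for Ets1. For Tfap2a and Tfap2c r was 0.57 (permutation p = 0.0563, adjusted 0.282) with a rho of 0.50 (p = 0.0991, adjusted 0.503), and r was 0.44 without retro-orbital 3 and the trigeminal nerve tumor. The pair of Tfap2b and Lmo4 passed when cheek 1 was left out (r = 0.83, adjusted permutation p = 0.0385). That was the 1 pass of any pair in the 14 settings other than the main one. Without retro-orbital 3, the highest tumor for both genes, r of this pair fell to 0.39 (adjusted permutation p = 0.762). The other 12 pairs had an r between -0.47 and 0.36.

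**Figure D4:**
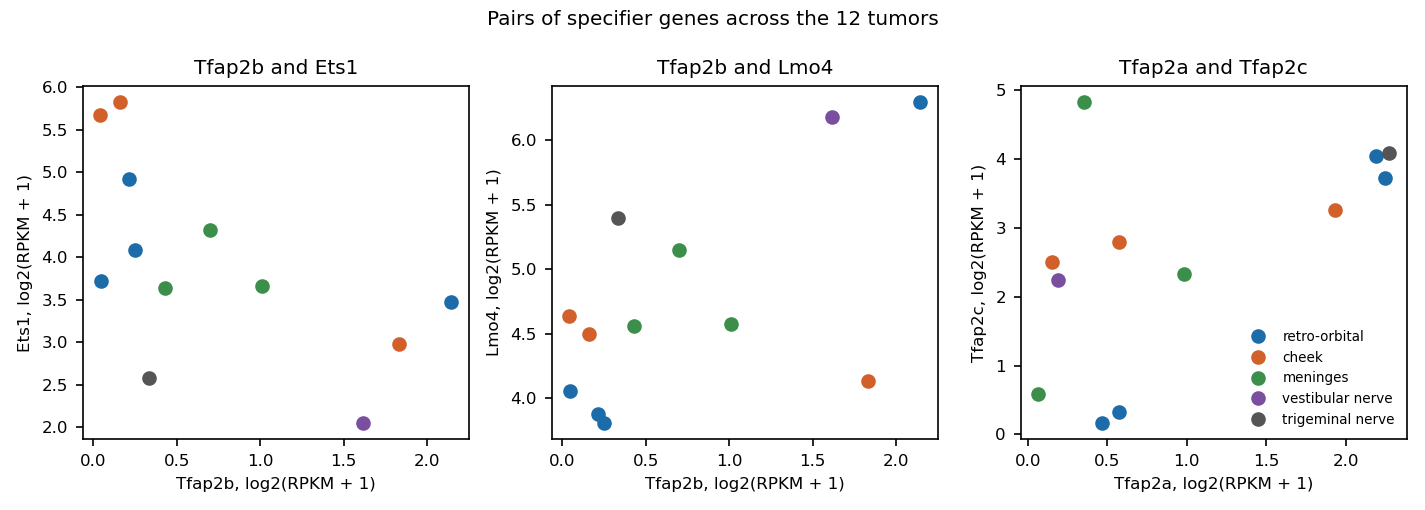
Levels on the log2(RPKM + 1) scale for 3 pairs of genes, with 1 point for each of the 12 tumors, colored by location. The r is -0.59 for Tfap2b and Ets1 and 0.60 for Tfap2b and Lmo4, neither past adjustment, and the third panel shows Tfap2c at low and high levels in tumors with little Tfap2a.

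For each of the 6 genes, the genes with the most similar pattern over the 12 tumors were taken from the 15039 others that reached 1 RPKM in at least 3 tumors. They were Nudt4, Rab27b and Fam166a for Tfap2c (r = 0.92, 0.89 and 0.87), Nupl2, Tatdn2 and Arl9 for Tfap2a (0.89, 0.87 and 0.86), and Mir6909, Prr24 and Padi1 for Tfap2b (0.91, 0.91 and 0.91). For Ets1 they were Adcy4, Praf2 and Dock5 (0.94, 0.93 and 0.93), for Ebf1 Cd163l1, Fhit and A730090N16Rik (0.89, 0.82 and 0.82), and for Lmo4 Rab4a, Zfp12 and Cdc42ep4 (0.87, 0.86 and 0.86). These are the highest of 15039 correlations for each gene, over 12 points that share their libraries, and serve as a description. No member was among the nearest 3 of another.

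The wider network around the members was measured in 60 genes of 8 lists. Of these, 55 were tested by location with limma. With tumors taken as independent, none passed in the F test or in any contrast in either direction. An unadjusted F test p under 0.05 was found for 9 of the 55, and for 2110 of all 14745 genes tested. The median difference of the 55 was 0.02 for cheek minus retro-orbital, 0.06 for meninges minus retro-orbital and 0.19 for meninges minus cheek, against -0.02, 0.13 and 0.16 over all genes tested. Of the 60 genes, 31 reached 1 RPKM in all 12 tumors, against 44.2% of all genes listed, the share to set beside each list below.

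Among the border factors, 0 of 7 reached 1 RPKM in all 12 tumors. Zic1, a zinc finger factor of the neural plate border, ranged from 0.508 RPKM (retro-orbital 2) to 159 RPKM (meninges 3), and Pax7 stayed under 1 RPKM throughout. Among the other specifiers, 6 of 12 reached 1 RPKM in every tumor, among them Twist1, which drives mesenchymal fate (10.9 to 192 RPKM), and Id3, an inhibitor of helix-loop-helix factors (48.4 to 242 RPKM). Sox10, needed for crest-derived glia and pigment cells, was lower, from 0.0878 to 3.56 RPKM.

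Of 7 cofactors and inhibitors of the AP-2 proteins, 5 reached 1 RPKM in all 12 tumors, against 44.2% of all genes listed. Kctd15 and Kctd1, which inhibit AP-2 activity, were between 1.36 and 11.3 RPKM and between 1.28 and 31.8 RPKM, and the coactivator Cited2 was between 3.62 and 24.2 RPKM. The coactivators Cited1 and Cited4 varied more widely, from 0.622 RPKM (retro-orbital 3) to 59.1 RPKM (cheek 1) and from 0.162 RPKM (retro-orbital 2) to 18.5 RPKM (vestibular nerve).

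Of the 14 other Ets genes, 12 reached 1 RPKM in every tumor, including Fli1 (5.44 to 24.5 RPKM), Gabpa (25.6 to 41.3 RPKM) and the myeloid factor Spi1 (7.13 to 48.8 RPKM). Ebf3, a close relative of Ebf1, ranged more widely than Ebf1, from 0.142 RPKM (retro-orbital 2) to 30.4 RPKM (cheek 1). Of the 7 genes listed around Lmo4 (Lmo1, Lmo2, Lmo3, Ldb1, Ldb2, Lhx2 and Rbbp8), 3 reached 1 RPKM in all tumors. Ldb1, the cofactor that LIM-only proteins bind, was between 39.2 and 77.7 RPKM. In the Foxd family 0 of 3 reached 1 RPKM in all tumors. Foxd1, a factor of kidney stroma and retina, was at 34.3 RPKM in meninges 1 and at 0.0900 to 5.93 RPKM elsewhere, and Foxd4 was at most 0.0392 RPKM.

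Several members are also expressed outside the neural crest, so the marker lists of 11 other cell types are given by their summed RPKM. The list for keratinocytes and surface epithelium, where Tfap2a and Tfap2c are active, summed to between 4.54 and 410 RPKM in the retro-orbital, 59.1 and 363 RPKM in the cheek and 22.5 and 438 RPKM in the meninges tumors, and to 593 and 270 RPKM in the vestibular and trigeminal nerve tumors. Of the 3 tumors with little AP-2, retro-orbital 2 and meninges 2 had the lowest epithelial sums of all 12 (4.54 and 22.5 RPKM), while retro-orbital 4 was at 76.6 RPKM, above retro-orbital 1 at 41.1 RPKM, which had 15.4 RPKM of Tfap2c. Macrophage markers were highest in retro-orbital 2 (440 RPKM), retro-orbital 4 (372 RPKM) and meninges 2 (276 RPKM). The other tumors were at 91.9 to 204 RPKM. Other lists did not set these 3 tumors apart. Their neuronal sums (28.5, 38.5 and 34.2 RPKM) lay within the range of the other tumors (11.8 to 50.7 RPKM). Their T lymphocyte sums ran from 2.25 RPKM (retro-orbital 2) to 29.7 RPKM (retro-orbital 4). The 3 tumors were picked by their AP-2 values, and their separation by macrophage markers was not tested.

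Endothelial markers summed to between 21.8 and 98.0 RPKM over the 12 tumors, mural cell markers to between 22.0 and 287 RPKM, Schwann cell markers to between 28.4 and 206 RPKM, neuronal markers to between 11.8 and 50.7 RPKM and skeletal muscle markers to between 3.998 and 423 RPKM. T lymphocyte markers summed to at most 29.7 RPKM, B lymphocyte markers, of the lineage in which Ebf1 acts, to between 0.516 and 9.78 RPKM, melanocyte markers to at most 11.5 RPKM and retinal markers to at most 2.25 RPKM.

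Each of the 6 genes was correlated with the 11 sums and with the fragment total, 72 relations in all, of which 4 had an unadjusted p under 0.05 for Pearson's r and none passed adjustment (lowest adjusted permutation p = 0.613 for Pearson's r and 0.741 for Spearman's rho). The strongest involved Tfap2c, with the macrophage sum (r = -0.67, permutation p = 0.0159, adjusted 0.613, and rho = -0.38, p = 0.220, adjusted 0.885), the melanocyte sum (r = -0.65, permutation p = 0.0256, adjusted 0.613, and rho = -0.60, p = 0.0425, adjusted 0.741) and the epithelial sum (r = 0.64, permutation p = 0.0244, adjusted 0.613, and rho = 0.43, p = 0.161, adjusted 0.885). Without the 2 tumors farthest from the median of each sum these were -0.26, -0.29 and 0.25, so they rested on those tumors. For Ets1 and the endothelial sum r was 0.19 (permutation p = 0.568, adjusted 0.885) and rho was 0 (p = 1). The part of other cell types in the levels of the members was not tested.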

How the data were processed

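RNA of 12 tumors was extracted, depleted of ribosomal RNA and sequenced from stranded libraries in a single pool. The authors aligned reads to mm10 with STAR, used HTSeq to count fragments per RefSeq gene, and deposited the result as 1 RPKM value for each gene in each tumor. The transcript length and total they divided by are not given in the sources used here, and 27 rows bear a date where the symbol should be and were never named. Groups are the locations in the labels.

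From these values, log2(RPKM + 1) was fitted with limma 3.58.1 in R 4.3.3 (trended, robust prior variance, Benjamini-Hochberg threshold 0.05, genes with 1 RPKM or more in 3 or more of the 10 tumors fitted). Correlations used 100000 permutations. Fragment totals and numbers were recovered as those that give whole fragments for low values. Between 50.9% and 58.5% of low values per tumor came out whole with annotated lengths (tolerance 0.02 fragments), so no count model was run. For the 10 members, lengths were used that bring all 12 values close to a whole number of fragments (largest deviation 0.0248 fragments, for Ets1). None of these lengths was that of a GENCODE M21 transcript of the gene, so the fragment numbers and Poisson intervals of the members rest on inferred lengths. Scripts were tested on simulated data. Named genes are the members, genes of the lists and the 3 nearest genes of each member tested. The members and lists were chosen with earlier results of these data known. Comparisons of neighbours in level, of retro-orbital with all other tumors, and of members with marker sums, and a limma fit with an estimated correlation between tumors that share the first part of their identifier, were added after the data were seen. Pseudocount, filter, normalization, prior variance, detection level and single tumors were varied. The values of 1 marker gene are not reported here.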

Additional observations from a re-analysis of the deposited data

Results flagged for a closer look

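Among the 4 retro-orbital tumors, the distance of 1 tumor from its nearest neighbour, as a share of the range of the 4, exceeded Dixon's 95% critical value for Lmo4, Tfap2b and Tfap2d among the 10 genes. That critical value is meant for normally distributed values, of which about 1 group in 20 would exceed it by chance. It was applied here to untransformed RPKM, and no share over all genes is given, so these flags cannot be set against chance. For Lmo4 the share was 0.959, from retro-orbital 3 at 77.6 RPKM, and for Tfap2b it was 0.953, from the same tumor at 3.42 RPKM. Retro-orbital 3 also had the highest recovered fragment total of the 12 tumors, 57128563. For Tfap2d the share was 1, from retro-orbital 1, where a single fragment (0.0211 RPKM) was counted and the other 3 tumors were at 0, so that the share is fixed at 1 and says nothing. The cause was not tested.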

How the results depend on the processing

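No paired analysis was possible because the labels give no replicate numbers that pair tumors across locations. Instead, a correlation between tumors that share an identifier was estimated (0.93, from 2 pairs, chosen after the data were seen). Counts over all genes moved with the setting. For the F test the 6 genes became 10 without the filter, 19 with a prior variance neither trended nor robust, 2802 with that correlation, and 0 to 198 when single tumors were left out. For cheek minus retro-orbital the 4 genes became 2 without the filter, 2 with that correlation and 0 to 147 on leaving out a tumor. For meninges minus retro-orbital the 3 genes became 7 without the filter, 6 with the plain prior and 0 to 41. For meninges minus cheek the 7 genes became 2 at a pseudocount of 0.1, 1 at 0.01, 18 without the filter, 13 after quantile normalization, 22 with the plain prior, 4243 with that correlation and 0 to 527. Other than with that correlation, the largest counts came without cheek 1 or retro-orbital 3, and the counts were 0 in every comparison without cheek 2 or cheek 3.

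Of 360 tests of the 6 members under the alternatives, 5 passed: Ets1 for meninges minus cheek without cheek 1, and, with that correlation, Tfap2a and Tfap2b in the F test and for meninges minus cheek. Of 270 member differences, 30 turned sign. With that correlation, cheek minus retro-orbital turned to 0.16 for Tfap2a, -0.44 for Tfap2c, -0.0714 for Ets1 and 0.24 for Ebf1, meninges minus retro-orbital to -0.40 for Tfap2b, 0.39 for Ets1 and -0.0274 for Ebf1, and meninges minus cheek to -1.22 for Tfap2b, 1.29 for Tfap2c, 0.47 for Ets1 and -0.27 for Ebf1. Tfap2b turned to -0.042 and -0.19 for cheek minus retro-orbital at pseudocounts of 0.1 and 0.01, and to -0.14 and -0.17 for meninges minus retro-orbital and meninges minus cheek after quantile normalization. Left-out tumors gave ranges of -0.19 to 0.33, -0.16 to 0.19 and -0.28 to 0.18 for Tfap2b in these 3 contrasts, -0.32 to 0.51 for Lmo4 in cheek minus retro-orbital, -0.61 to 1.51 and -1.40 to 0.72 for Tfap2c in meninges minus retro-orbital and meninges minus cheek, and -0.40 to 0.11 for Ets1 in meninges minus retro-orbital. Tfap2a and Tfap2b failed the filter in 3 of the 10 sets with a tumor left out. No pair of members correlated past the threshold, or 0 to 1 pairs with a tumor left out. At 0.5 RPKM 3 members were present in all tumors, as at 1 RPKM, and at 5 RPKM 1 was (Lmo4). The cause of these moves was not tested. In data simulated for the F test, 69% of 200 genes changed by 2 on the log2 scale and 92% of 200 changed by 4 were recovered. The changed genes were drawn from those with a mean log2(RPKM + 1) above 3, which Tfap2a, Tfap2b, Tfap2c and Ebf1 did not reach. All 6 members tested also varied more than the median gene. These shares thus do not apply to the members, whose differences could be missed with 3 or 4 tumors a group.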
